A study of Saccharomyces cerevisiae with 4 samples.

Results

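Chromosome IV of budding yeast was examined as a whole, through every ATAC-seq peak deposited for it in 2 libraries of cells lacking SWC4 (swc4Δ) and 2 wild-type (WT) libraries. ATAC-seq uses the transposase Tn5, which cuts and tags open DNA, so that a peak marks a stretch of accessible chromatin. Members were all peaks that the 4 lists place on IV: 405 and 459 in swc4Δ replicates 1 and 2, and 293 and 240 in WT replicates 1 and 2. They made up 1397 of the 9663 peaks of the 4 lists. IV was singled out with its excess of swc4Δ peaks already known, so the number, coverage and fold of its peaks, and the regions gained or lost, are given as descriptions without a test.

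Both genotypes were grown at 30 °C to mid-logarithmic phase and are labelled as the laboratory strain BY4741, so the labels give the SWC4 deletion as their difference. Nothing in the labels says that replicates came from separate cultures or that more than 1 deletion clone was used, and the spread between libraries may therefore be technical. SWC4 lies on chromosome VII, not IV. The 4 libraries had background levels of 24.4 and 25.5 overlapping counts in swc4Δ and 22.6 and 24.0 in WT. These counts are called fragments below, although the sources used here do not say whether reads, cuts or fragments were counted. Read totals were not used here.

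In budding yeast, open chromatin lies mainly in nucleosome-depleted stretches upstream of genes, flanked by nucleosomes that often carry the histone variant Htz1. The remodeller SWR1 exchanges canonical H2A for Htz1 at these places, and the acetyltransferase NuA4 acetylates histones there. Swc4 is a subunit of both complexes. IV is the longest chromosome of the reference assembly, and its genes belong to many pathways.

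The labels were also checked with genes that only 1 mating type uses, all but MFA1 on other chromosomes. BY4741 is a MATa strain, whose cells transcribe the a-specific genes and not the α-specific ones. Of 7 a-specific promoters, 6 and 5 held a peak in the swc4Δ libraries and 0 and 0 in the libraries labelled WT. Of 4 α-specific promoters, 2 and 1 held a peak in swc4Δ and 4 and 4 in the libraries labelled WT. MFA1, an a-factor gene, lies on IV and shows this contrast with folds over background of 3.35 and 2.42 in swc4Δ and no peak in either WT library. The peaks at these promoters thus go against the labelled strain in the libraries labelled WT. Not every gene followed this pattern: STE3, α-specific, had a peak in all 4 libraries, and ASG7, a-specific, had none. Mating type itself was not determined. An apparent difference in mating type thus goes with genotype in every comparison below, and the part of each cannot be told apart.

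IV held more of each swc4Δ list than of each WT list. Its peaks formed 14.3% and 19.4% of the swc4Δ lists and 12.4% and 11.3% of the WT lists. The chromosome takes up 12.7% of the genome's length (1531711 bp) and 12.8% of its protein-coding genes. Lengths were taken to the end of each chromosome's last gene or peak, so they are approximate. Peaks covered 15.4% and 17.9% of IV in swc4Δ and 9.95% and 7.78% in WT. On the other 15 chromosomes the lists covered 13.6% and 10.4% in swc4Δ and 10.8% and 9.53% in WT, so that swc4Δ replicate 2 lay between the WT libraries there. On average 432 ± 38.2 peaks (SD, n = 2) lay on IV in swc4Δ and 266.5 ± 37.5 (SD, n = 2) in WT.

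The median IV peak was 455 and 450 bp wide in swc4Δ and 412 and 405 bp in WT, each list starting at 200 bp. The widths averaged 452.5 ± 3.54 bp in swc4Δ and 408.5 ± 4.95 bp in WT (SD, n = 2 each), a difference of 44 bp that exceeded the spread within either genotype (exact permutation test over libraries, two-sided, p = 0.333). With 2 libraries against 2, 0.333 is the smallest p possible, so no comparison here could pass 0.05. Peaks of at least 800 bp made up 20% and 22.2% of the IV peaks in swc4Δ and 15.7% and 13.8% in WT. On the other chromosomes the median widths were 430 and 435 bp in swc4Δ and 414 and 402 bp in WT. The gap between IV and the rest was 25 and 15 bp in swc4Δ and -2 and 3 bp in WT, given as a description. Peak width enters the coverage of IV, so the width differences are not independent of how IV was chosen.

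The deposited fold of a peak is its summit height over a background that was the same for the whole library, with an equal constant added to both. Median folds on IV were 2.92 and 2.30 in swc4Δ and 2.54 and 2.46 in WT, so the genotypes overlapped in the level of a typical peak. A fold of 4 was reached by 89 and 52 peaks in swc4Δ and by 17 and 12 in WT, or 22.0% and 11.3% of the IV peaks in swc4Δ and 5.80% and 5% in WT. The other 15 chromosomes showed the same order, with 21.3% and 12.3% in swc4Δ and 9.51% and 6.88% in WT. The highest fold was 7.76 and 5.89 in swc4Δ and 5.17 and 5.04 in WT. The weakest IV peaks had folds of 1.58 and 1.55 in swc4Δ and 1.69 and 1.64 in WT, which correspond to 39 and 40 fragments and to 39 and 40 fragments at the summit.

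Peaks lay along the whole of IV. The centromere falls in the 943 bp gap between RMD1, the innermost gene of the left arm, and NTH1, the innermost of the right arm, which leaves 29.4% of the length to the left arm and 70.6% to the right. The left arm held 29.3 and 33.8 peaks per 100 kb in swc4Δ and 22.5 and 20.7 in WT. The right arm held 25.2 and 28.4 per 100 kb in swc4Δ and 17.7 and 13.6 in WT. The right arm's share of the IV peaks was 67.4% and 66.9% in swc4Δ and 65.5% and 61.3% in WT, a difference of 3.76 points (exact permutation p = 0.333, two-sided) that was 1.62 points without WT replicate 2. At a stricter threshold (a −log10 q of at least 5) the shares were 68.7% and 67.9% in swc4Δ and 69.7% and 64.6% in WT, so the genotypes overlapped (difference 1.18 points, exact permutation p = 1). In all 16 segments of 100 kb counted outward from the centromere, both swc4Δ libraries had more peaks than both WT libraries.

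**Figure D1:**
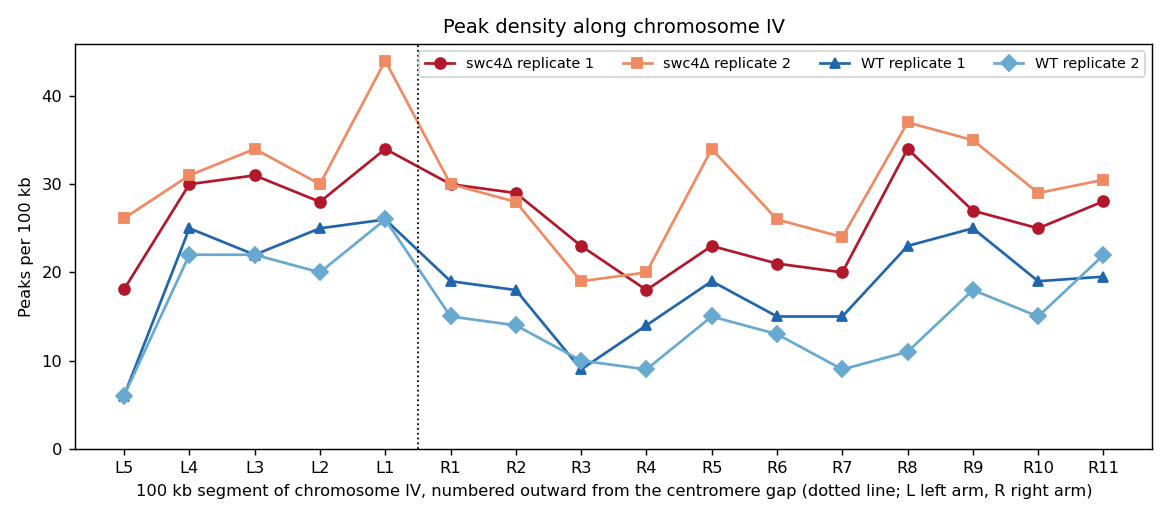
Peaks per 100 kb of chromosome IV (vertical axis) in 16 segments numbered outward from the centromere, left arm to the left of the dotted line, with 1 line for each library. Both swc4Δ lines lie above both WT lines in all 16 segments, and densities reach 44 per 100 kb in swc4Δ replicate 2 in the left segment next to the centromere, where both WT libraries have 26.

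Folds were also compared over the same places. Overlapping peaks from any of the 4 lists, by 1 bp or more, were joined into a region, and 182 regions of IV held a peak in all 4 libraries. Their median fold, divided by that of the 1146 such regions on the other 15 chromosomes in the same library, was 1.05 and 1.14 in swc4Δ and 0.972 and 0.993 in WT. Of the 182, 107 had a relative fold higher in both swc4Δ libraries than in both WT libraries and 13 lower in both. That is 58.8% against 29.0% of such regions on the other chromosomes, and 33.1% of the 1328 over all chromosomes. The 13 lower ones were 7.14%, against 21.5% of the 1328. The difference in the relative median, 0.113, was 0.0671 without WT replicate 1. Swc4Δ replicate 1 had a lower ratio than replicate 2 in every segment.

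The arms differed in these relative folds. On the right arm the medians were 1.13 and 1.26 in swc4Δ and 1.01 and 1.03 in WT, with both swc4Δ libraries higher in 81 of 115 regions (70.4%). On the left arm they were 0.947 and 1.01 in swc4Δ and 0.944 and 0.955 in WT, with both higher in 26 of 67 (38.8%). Over all chromosomes both were higher in 33.1% of 1328 regions. On the left arm swc4Δ replicate 1 was therefore level with WT, although it had more peaks there. The median region-by-region ratio of swc4Δ to WT was 1.18 on the right arm (quartiles 1.10 and 1.25), 1.07 on the left arm (0.980 and 1.13) and 1.00 on the other 15 chromosomes (0.910 and 1.10). The difference between the arms was not tested.

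**Figure D2:**
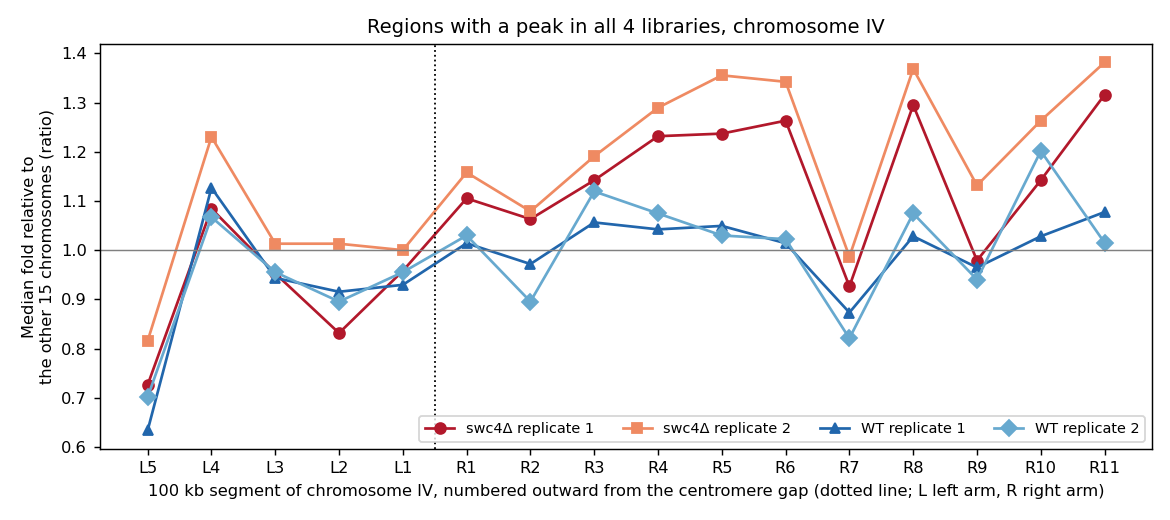
Median fold of regions with a peak in all 4 libraries in each 100 kb segment of chromosome IV, as a ratio to the median of such regions on the other 15 chromosomes (grey line at 1), with 1 line for each library. Swc4Δ replicate 2 lies above both WT libraries in each segment, while swc4Δ replicate 1 falls between or below the WT libraries in 4 segments. The outermost left segment rests on 3 regions and the third right one on 4.

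Where a region held exactly 1 peak in each library (130 regions of IV), summits stayed in place. The median distance between summits was 9 bp for the 2 swc4Δ libraries, 20 bp for the 2 WT libraries and 20 to 23.5 bp for the 4 pairs across genotypes. The same peaks were wider in swc4Δ, with medians of 630.5 and 688 bp, against 487 and 416 bp in WT. At 890 such regions on the other chromosomes the medians were 572 and 503.5 bp in swc4Δ and 523.5 and 462.5 bp in WT. Distances across genotypes were thus close to that between the WT replicates.

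The 8 regions with the highest folds, ranked within each library and averaged, each overlapped at least 1 promoter, although the summit lay outside any promoter (the 500 bp upstream of a coding gene) at 3 of them (SED1, ENA1 and SNQ2). The first was the promoter of GPD1, which makes glycerol-3-phosphate dehydrogenase for osmotic glycerol synthesis (region 410182 to 413013, sacCer3; gene at 411825 to 413000). Its folds were 6.90 and 5.89 in swc4Δ and 5.17 and 5.04 in WT, from summits of 174, 155, 121 and 125 fragments in the same order. The summit lay on the same base, 411444, in all 4 libraries, at -381 bp from the GPD1 start (negative values are upstream). Exact Poisson 95% intervals of these counts, which cover counting error only, were 149 to 202 and 132 to 181 in swc4Δ and 100.4 to 145 and 104 to 149 in WT.

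The gap between GNP1, a glutamine permease gene, and SMT3, the gene of yeast SUMO, came next (1468355 to 1469643). Its folds were 6.42 and 5.51 in swc4Δ and 4.66 and 4.60 in WT. The region over SED1, a structural cell wall protein gene (599475 to 602724), was also the widest of IV, with folds of 7.76 and 5.74 in swc4Δ and 4.24 and 4.52 in WT. Its strongest peak spanned 2790 and 3183 bp in swc4Δ and 2467 and 2534 bp in WT, with the summit at -840 to -819 bp from the SED1 start. In each of these regions the lower swc4Δ fold exceeded the higher WT fold, as it did in 143 of the 182 regions (45.4% of the 1328 over all chromosomes).

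RIB3, of riboflavin synthesis, had folds of 7.01 and 5.66 in swc4Δ and 4.32 and 4.44 in WT (1428513 to 1430315). The gap of BAP3, a branched-chain amino acid permease gene, and HEM12, of haem synthesis, had 6.70 and 5.55 in swc4Δ and 4.57 and 4.00 in WT (550346 to 551699). Upstream of ENA1, the main sodium pump gene, folds were 6.66 and 5.51 in swc4Δ and 4.07 and 4.04 in WT, with summits at -667 to -662 bp from its start. The others of the 8 strongest lay by SNQ2, a multidrug transporter gene, and by EFT2, a gene of translation elongation factor 2. EFT2 had 6.03 and 5.43 in swc4Δ and 4.15 and 4.24 in WT.

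Among the widest regions, that of HSP42, a small heat shock protein gene, and SUP35, the gene of a translation termination factor, extended over 2871 bp (805831 to 808701). Its folds were 5.56 and 4.42 in swc4Δ and 4.28 and 2.96 in WT. The region over JIP4, YDR476C and SNF1, the last a kinase gene of glucose derepression, was longer, at 2947 bp, but lower. It had folds of 3.27 and 3.06 in swc4Δ and 2.92 and 3.12 in WT, so the genotypes overlapped there.

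Regions with peaks in swc4Δ replicates 1 and 2 but not in WT, here called gained, numbered 72, or 21.7% of the 332 regions of IV found in both libraries of a genotype. Over all chromosomes 14% of 2181 such regions were gained, a share that includes IV and the contrast by which IV was chosen. The opposite pattern, called lost, was seen at 1 region of IV (4.22% over all chromosomes). Leaving out a library drops 1 condition from the call, which by itself raises the gained count. It was 174 without swc4Δ replicate 1, 127 without swc4Δ replicate 2, 129 without WT replicate 1 and 89 without WT replicate 2. With equal numbers of peaks per list it was 47. When the background of IV was scaled by the relative median fold of IV given above, which raised it in swc4Δ only, the gained count was 69. That setting could only remove listed peaks, so it could not add a peak in WT. It also used 1 ratio per library for both arms. On the right arm, which held 52 of the 72 gains, the relative medians were 1.13 and 1.26 in swc4Δ.

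Gained regions were modest peaks. Their folds ran from 1.77 to 3.98 in swc4Δ replicate 1 and from 1.66 to 3.02 in replicate 2, with medians of 2.40 and 2.13, against medians of 3.94 and 3.26 for the 182 shared regions of IV in the same libraries. Replicate 1 was higher at 58 of the 72. It was also higher at 121 of the 130 regions of IV with exactly 1 peak in each library, and at 852 of 890 such regions elsewhere. The gains fell in all 16 segments, with 1 to 11 in each, and made up 18.5% of the reproducible regions on the left arm and 23.2% on the right. The segment with most, 700 to 800 kb right of the centromere, had 11 gains among 29 reproducible regions. It held 34 and 37 peaks in swc4Δ and 23 and 11 in WT, so WT replicate 2 was low there.

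**Figure D3:**
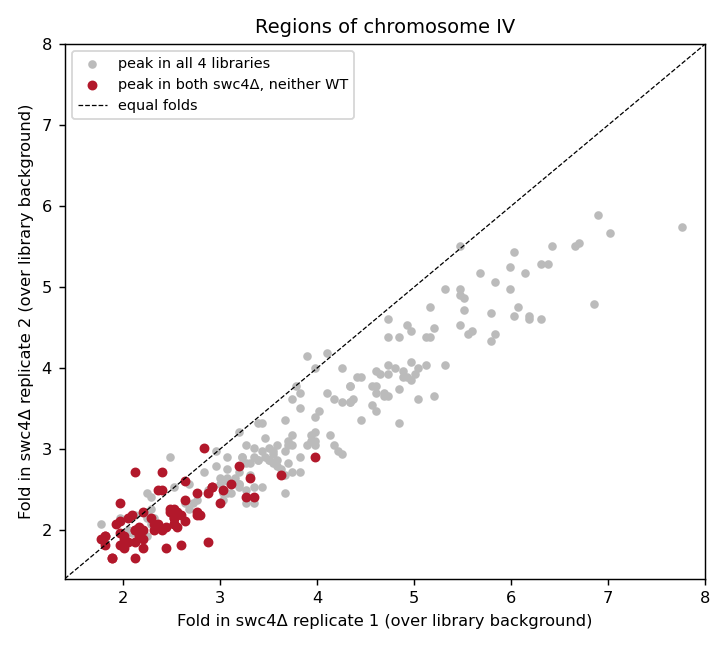
Deposited fold of each chromosome IV region in swc4Δ replicate 2 (vertical axis) against swc4Δ replicate 1 (horizontal axis), for 72 regions with a peak in both swc4Δ libraries only (red) and 182 with a peak in all 4 libraries (grey). Red points stay at or below 3.98 and 3.02, at the low end of the grey cloud, and most points lie below the dashed line of equal folds.

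The leading gain lay between RQC1, a factor of ribosome quality control, and SWR1, which encodes the ATPase of the SWR1 remodeller (1135408 to 1135744). It had 100 and 76 fragments at the summit in swc4Δ, with exact Poisson 95% intervals of 81.4 to 122 and 59.9 to 95.1, and no WT peak. The second, at folds of 3.63 and 2.68 in swc4Δ, covered the tRNA gene YNCD0014C and the promoter of GRX3, a glutaredoxin gene of iron handling (644979 to 645315). The third, at 3.19 and 2.79 in swc4Δ, lay between MET32, a regulator of methionine synthesis, and CHL4, a kinetochore gene (964761 to 965128). The lack of a WT peak at these places follows from the rule that chose them.

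NHX1, the gene of an endosomal sodium and proton exchanger, shared a gain with GUK1 (1367184 to 1367575; folds 2.84 and 3.02 in swc4Δ). Among the 12 strongest gains swc4Δ replicate 2 was higher at this one only. The gap of NTH1, the neutral trehalase gene beside the centromere, and YRB1, of nuclear transport, had 3.11 and 2.57 in swc4Δ (452357 to 452881). GCV1, of glycine cleavage, had 3.27 and 2.42 in swc4Δ (485319 to 485988), and SSD1, an RNA-binding regulator of cell wall mRNAs, had 3.03 and 2.49 (1049281 to 1049812). The remaining leading gains were at ESF1, of rRNA processing, MFA1, PAU10, a seripauperin gene near the right end, KIN1, a kinase gene of polarised secretion, and a place at -1476 and -1468 bp from the start of HXT7, a high-affinity glucose transporter gene. The gain at ESF1 also touched the promoters of YDR365W-A and YDR365W-B.

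Most gains on IV touched a promoter, taken as the 500 bp upstream of a coding gene: 62 of 72, or 86.1%, against 93.4% of the shared regions of IV. On the other 15 chromosomes 156 of 233 gained regions did so. The IV share was 56.9% without swc4Δ replicate 1 and at least 79.5% without any other library. Promoters of at least 2 genes were touched by 25 of the gained regions and that of 1 gene by 37. Gene bodies only were touched by 6, among them EAF1, the platform subunit gene of NuA4 (1192432 to 1192828; folds 2.88 and 1.85 in swc4Δ), which was picked out after its values were seen. The EAF1 promoter was not gained, with folds of 3.70 and 3.02 in swc4Δ, against 2.80 and no peak in WT.

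Counted by promoter, 98 of the 766 coding genes of IV had peaks over the promoter in swc4Δ replicates 1 and 2 and none in WT (12.8%, against 5.23% over all chromosomes), and 0 had the reverse (1.05% over all chromosomes). Of the 98, 85 were touched by a gained region and 12 by a merged region with a WT peak that stopped short of the promoter, as at RPO21 and HBT1, which were named after their values were seen. A promoter peak in all 4 libraries was found at 246 genes of IV (32.1%, against 31.1% over all) and in none at 213. Promoters with a peak numbered 501 and 491 in swc4Δ and 346 and 270 in WT.

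The only lost region lay inside DLD1, the mitochondrial D-lactate dehydrogenase gene (146020 to 146669). It was low in both WT lists, with folds of 1.99 and 1.68, and its summits were at 146176 and 146487. It was not called at the stricter threshold.

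Genes of IV were also grouped by function. Of all 766 coding genes of IV, 32.1% had a promoter peak in all 4 libraries and 27.8% had none. Gained promoters were 12.8% on IV and 5.23% over all chromosomes. No list was tested against these shares. Promoters of cytosolic ribosomal protein genes were open nearly throughout: 16 of the 19 on IV held a peak in all 4 libraries, with median folds of 4.93 and 4.04 in swc4Δ and 3.45 and 3.04 in WT. RPS18A, for the small subunit, had 5.83 and 4.42 in swc4Δ and 3.98 and 3.60 in WT. RPL4B, for the large subunit, was the only gained member, at 1.93 and 2.08 in swc4Δ. Of the others RPP2B and RPS13 had no peak in WT replicate 2 only.

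Among 11 genes listed under sugar uptake, glycolysis and their control, 7 had a promoter peak in all 4 libraries. HXT3, a low-affinity glucose transporter gene, had folds of 6.15 and 5.17 in swc4Δ and 3.85 and 3.40 in WT, and TPI1, of triose phosphate isomerase, 5.52 and 4.72 in swc4Δ and 3.52 and 3.80 in WT. GAL3, the galactose sensor gene, was the gained member, at 2.99 and 1.89 in swc4Δ. HXT15 near the left end had none. HXT6 and HXT7 share nearly all of their sequence, so their values depend on the placing of reads that match more than 1 site.

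A list of 14 mostly amino acid synthesis genes, which also holds the purine synthesis gene ADE8 and the asparaginase gene ASP1, had 8 open in all 4 libraries, ADE8 among them. It was led by the region over the promoters of HOM2, of threonine and methionine synthesis, and CPR1, a cyclophilin gene, at 6.19 and 4.64 in swc4Δ and 4.32 and 4.40 in WT. MET32 was gained, and none was lost. TRP4, of tryptophan synthesis, had a peak in WT replicate 1 only, at 2.33. The 7 proteasome genes had 4 open in all libraries, among them RPN4, the regulator of proteasome genes, at 4.73 and 3.93 in swc4Δ and 3.30 and 3.40 in WT.

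A list of 11 chromatin and transcription regulators had 5 members open in all 4 libraries: RSC3, of the RSC remodeller, BDF2, a bromodomain protein gene, SNF11, of SWI/SNF, RXT3, of a histone deacetylase complex, and INO2, a regulator of phospholipid synthesis. Its 2 gained members were SWR1 and DOT1, a histone methyltransferase gene (2.13 and 1.66 in swc4Δ). SIR4, of silencing, had no peak. VPS72, of the SWR1 complex, had a peak in swc4Δ replicate 2 only, at 1.77. SIR2, the silencing deacetylase gene, had 4.22 and 3.66 in swc4Δ, against 1.78 and no peak in WT. The divergent promoter of the histone genes HTA1 and HTB1 had 4.41 and 3.89 in swc4Δ and 3.30 and 2.68 in WT.

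Of 19 cell cycle and replication genes, 4 were open in all 4 libraries, 4 were gained and 7 had no peak. Over all coding genes of IV these shares were 32.1%, 12.8% and 27.8%. The gained ones were CDC53, of the SCF ubiquitin ligase (2.76 and 2.45 in swc4Δ), MCD1, of cohesin, CLB3, a B-type cyclin gene, and RAD9, of the DNA damage checkpoint. SSB1 and GRX3 were the gained members among 11 chaperone and stress genes, of which 5 were open in all 4. Of 5 cation transport genes, ENA1 and VCX1 were open in all 4 and NHX1 was gained. Of 8 genes listed under respiration, which include CBS1, a mitochondrial translation factor gene, 4 were open in all 4 and none was gained. Of 8 genes listed under sporulation and meiosis, 6 had no peak in any library, against 213 of the 766 promoters of IV (27.8%). The exceptions were DON1, with a peak in swc4Δ replicate 1 only, and MSC2, a zinc transporter gene, which was open in all 4.

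Over the 117 listed genes 10.3% were gained, below the 12.8% of all coding genes of IV. Peaks in all 4 libraries were found at 50.4% of them, against 32.1% of all coding genes of IV.

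Transfer RNA genes, which RNA polymerase III transcribes from promoters inside the gene, number 28 on IV. Peaks overlapped 26 and 25 of them in swc4Δ and 20 and 11 in WT. On the other chromosomes 87.0% and 67.2% of 247 had a peak in swc4Δ and 65.6% and 49.8% in WT. A peak in all 4 libraries was present at 10 of the 28 (41.1% over all chromosomes), and at 9 more only WT replicate 2 lacked it. None of the 28 lacked a peak in all 4 libraries.

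At the 10 shared tRNA genes the deposited fold was higher in both swc4Δ libraries than in both WT libraries at 10 of 10, against 36.3% of the 113 such genes over all chromosomes. The same order held at 143 of the 182 shared regions of IV (78.6%), so it was common on IV as a whole. YNCD0011W and YNCD0012W lay under the same peaks, and the swc4Δ replicate 2 value of YNCD0004W came from the GPD1 peak. The other genes gave 8 separate peaks, higher in swc4Δ at 8 of 8. Among the strongest was YNCD0020W (992832 to 992902), at 5.32 and 4.04 in swc4Δ and 3.64 and 3.12 in WT. YNCD0026W (1201750 to 1201822), beside the promoter of SEM1, had 4.85 and 4.38 in swc4Δ and 3.69 and 2.88 in WT. SUP2, a tyrosine tRNA gene, had 3.98 and 4.00 in swc4Δ and 3.05 and 2.88 in WT. At these 3 genes the summits lay 120 to 267 bp from the 5′ end of the gene, beyond its 3′ end. Of all IV peaks, 9 and 8 in swc4Δ and 5 and 2 in WT had the summit inside a tRNA gene.

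Of the 28 tRNA genes, 3 were gained (9.09% over all chromosomes) and 0 lost (0% over all). YNCD0014C (645153 to 645224) led, at 3.63 and 2.68 in swc4Δ, with summits 65 and 78 bp from the gene's 5′ end. YNCD0003W (359577 to 359672) had 2.48 and 2.23 in swc4Δ. For YNCD0019C (980974 to 981055), at 2.29 and 1.85 in swc4Δ, a peak of WT replicate 2 with a fold of 1.76 lay in the same merged region but stopped short of the gene. Copies of a tRNA family share sequence, and the sources used here do not give the treatment of reads that match several copies.

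**Figure D4:**
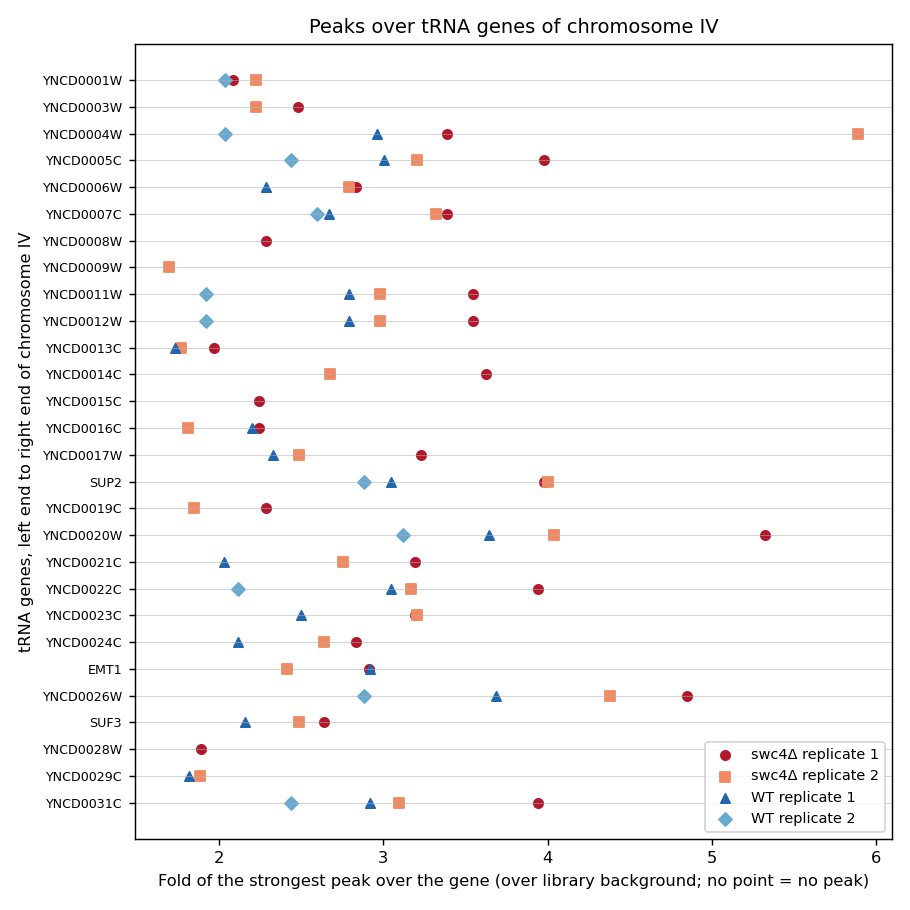
Fold of the strongest peak over each of the 28 tRNA genes of chromosome IV (horizontal axis), ordered from the left end at the top to the right end at the bottom, with a marker for each library and no marker where it had no peak. Swc4Δ markers are present at 26 and 25 genes and WT markers at 20 and 11. The value of 5.89 at YNCD0004W belongs to a 1931 bp peak of swc4Δ replicate 2 whose summit lies at GPD1.

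The 4 snoRNA genes of IV guide the modification of rRNA. SNR47 had 4.61 and 3.77 in swc4Δ, against no peak in WT replicate 1 and 3.08 in WT replicate 2. SNR13 had 2.52 and 2.53 in swc4Δ, against 2.03 and no peak in WT. SNR63 and SNR84 had none.

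The 2 swc4Δ libraries differed in the kind of peak they added. Of the 405 peaks of replicate 1, 85.9% overlapped a peak of replicate 2, and of the 459 peaks of replicate 2, 76.7% overlapped one of replicate 1. On the other chromosomes the order was the opposite, at 67.6% and 90.0%. In regions of IV found in no other library, replicate 1 had 48 peaks, 72.9% of them with the summit in a promoter. Replicate 2 had 93, of which 33.3% had the summit in a promoter and 64.5% only inside a coding gene. On the other 15 chromosomes the promoter share of such peaks was 62.1% in replicate 1 and 24.0% in replicate 2. The share only inside a coding gene was 67.4% there in replicate 2. On IV each WT library had 8 such peaks, 87.5% and 100% of them with the summit only inside a coding gene. The 93 of swc4Δ replicate 2 were weak, with a median fold of 1.85 and a highest fold of 2.34, against 2.19 and 3.03 in replicate 1.

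Summits inside a coding gene and outside any promoter numbered 45 and 119 in swc4Δ and 45 and 50 in WT. Of the 119, 60 lay in regions found in no other library. Peaks of this kind were low in every library, with median folds of 1.93 and 1.89 in swc4Δ and 1.95 and 1.90 in WT, against 2.96 and 2.55 in swc4Δ and 2.63 and 2.58 in WT for summits in promoters outside gene bodies. The share of IV summits in promoters was 76.3% and 63.2% in swc4Δ and 69.6% and 63.3% in WT. The difference of 3.26 points was smaller than the spread in either genotype (SD 9.27 in swc4Δ and 4.45 in WT, n = 2 each; exact permutation p = 1, two-sided) and turned to -3.30 without swc4Δ replicate 1. At the stricter threshold the shares were 80.5% and 76.9% in swc4Δ and 75.7% and 72% in WT, which did not overlap (difference 4.87 points, exact permutation p = 0.333).

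**Figure D5:**
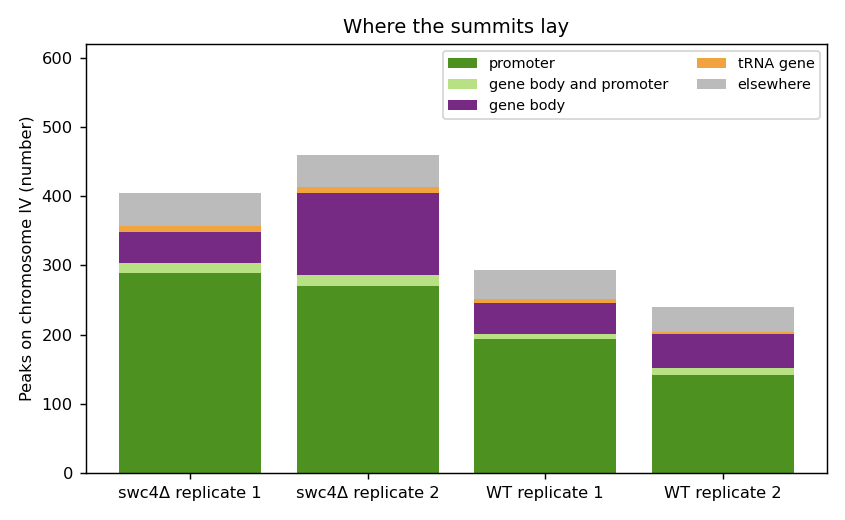
Number of chromosome IV peaks in each library (bars from 0), divided by where the summit lay: in a promoter, in a promoter and a gene body, in a gene body only, in a tRNA gene or elsewhere. The gene body part is 119 in swc4Δ replicate 2, against 45 in swc4Δ replicate 1 and 45 and 50 in WT.

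The strongest peaks of swc4Δ replicate 1 alone lay between NOP14 and RPN5, of ribosome assembly and the proteasome lid (190602 to 190918; fold 3.03), and upstream of WHI4 (2.99), YRA1, an mRNA export factor gene (2.84), and VTC5, of polyphosphate synthesis (2.72). The strongest regions of swc4Δ replicate 2 alone lay upstream of PHM6, a phosphate-regulated gene (1022467 to 1022723; 2.34), DPL1, of sphingolipid breakdown (2.23), URH1, of nucleoside breakdown (2.23), and OST4, of protein glycosylation (2.19). Separate peaks of other libraries reached the OST4 promoter (1.77 in swc4Δ replicate 1) and the URH1 promoter (1.72 in WT replicate 2).

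Over all IV peaks, summits lay at a median of -197 and -176 bp from the closest coding start in swc4Δ and of -204 and -219 bp in WT. Summits upstream of that start made up 85.7% and 74.5% in swc4Δ and 84.0% and 77.9% in WT. Within a peak the summit lay close to the middle, at a median of 49.4% and 49.1% of the width in swc4Δ and 50.3% and 51.0% in WT.

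The ends of IV were open in all 4 libraries. The leftmost peak began at 33 and 64 in swc4Δ and at 73 and 87 in WT, with folds of 3.82 and 3.51 in swc4Δ and 3.39 and 2.88 in WT. The rightmost peak, with summits at -1114 to -1105 bp from the start of YRF1-1, a helicase gene of the subtelomeric Y′ element, had folds of 5.48 and 5.51 in swc4Δ and 4.53 and 3.84 in WT. Both swc4Δ libraries were higher than both WT libraries at each end. The outer 20 kb held 5 and 4 peaks on the right in swc4Δ and 1 and 1 in WT, while on the left they held 1 and 2 in swc4Δ and 1 and 1 in WT. Subtelomeric sequence is shared among chromosomes, so these values too depend on the placing of reads with several matches.

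The gap that holds the centromere was touched by 2 and 1 peaks in swc4Δ and by 0 and 0 in WT. The folds were at most 2.33 and 2.11 in swc4Δ. The peak of swc4Δ replicate 2 (449952 to 450833) had its summit at 450680, inside NTH1. A peak of WT replicate 1 (450223 to 450765) had its summit close by, at 450689, and stopped just short of the gap. A peak in swc4Δ replicate 1 lay wholly inside the gap at 449371 to 449594, with its summit at 449505. No other library had a peak that overlapped it, so this rests on 1 library.

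The authors also deposited 1 list of regions for each genotype, for which the sources used here name no caller and do not say whether replicates were pooled. IV held 394 of the 2602 regions of the swc4Δ list (15.1%) and 124 of the 1002 of the WT list (12.4%). Of the 72 gained regions, 57 were covered in the swc4Δ list and 4 in the WT list. Of the 182 shared regions, 180 were covered in the swc4Δ list and 103 in the WT list, so the WT list also missed places open in every library. The median deposited score of the IV regions was 263.5 in the swc4Δ list and 268 in the WT list, against 240 and 276 for the other chromosomes in the same order of genotypes.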

How the data were processed

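Members and gene lists were chosen with earlier results of these data known. The deposited narrowPeak lists, 1 per library, give each peak's fold (a ratio to background), −log10 p-value, −log10 q-value and summit. Per the submitters' processing notes, the tools included SAMtools 1.4, Picard 2.18.7, deepTools 1.5.11, Trim Galore 0.5.0 and Bowtie2 2.3.1, with the build sacCer3. For the peak caller, its settings and any Tn5 shift: not given in the sources used here. In the deposited lists all folds lay within 0.01 of whole steps of 1 ladder per library, from which summit pileups and the single background were read. The 2 genotype lists hold a deposited score per region and have no replicates.

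Peaks sharing at least 1 bp were merged. Gene positions were those of RefSeq's R64 table, the assembly that sacCer3 names, with strand from the systematic name. Promoters were 500 bp upstream of 6002 nuclear coding genes. Reads are not independent molecules, so intervals cover counting error only. Single values per library were compared by exact permutation tests. Named regions were the 12 strongest gained, up to 6 lost, the 8 strongest and 4 widest shared, and the 4 strongest of each swc4Δ library alone, ranked by percentile of fold. tRNA genes, ends, centromere and gene list members followed by rule. Merging and calls were tested on simulated data with widely spaced regions and no missed peaks. That test could not show errors from neighbouring regions that merge or from peaks missed near the threshold. Python 3.11.15, pandas 2.3.3 and SciPy 1.17.1 were used. No genome sequence was used here, so no sequences are shown.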

Additional observations from a re-analysis of the deposited data

How the results depend on the processing

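The settings tried were a minimum −log10 q of 5 (the stricter threshold), the 2115 strongest peaks of every list, leaving out each library, a 50% overlap, promoters of 300 bp and a replicate block, plus 1 chosen after seeing the data, in which the background of IV was scaled by each library's relative median fold of IV. Gained regions, 72, were 62 at the stricter threshold, where 39 of the 72 remained gained, and 47 with equal numbers of peaks. They were 69 (all 69 among the 72) with the rescaled background and 89 to 174 with a library left out. Leaving out a library drops 1 condition from the calls, which by itself raises the counts of gained and lost regions. Shares taken from these calls then rest on other sets of regions. The rescaling could only remove listed peaks and could not add any in WT. Lost regions, 1, were 0 at the stricter threshold, 2 after rescaling and 3 to 10 with a library left out. The gained share, 21.7%, was 16.5% with equal numbers and 25.1% to 38.8% with a library left out, and the share of gains at promoters, 86.1%, was 56.9% to 86.8%. With a library left out, the difference in promoter summits ranged from -3.30 to 9.82 points, turning negative without swc4Δ replicate 1, and the difference in relative fold from 0.0671 to 0.140. The causes were not tested. The width difference of 44 bp was 77.5 bp at the stricter threshold, 87.25 bp with equal numbers and 40.5 to 47.5 bp with a library left out. The right arm's difference of 3.76 points was 1.18 at the stricter threshold, where the genotypes overlapped, 4.29 with equal numbers and 1.62 to 5.90 with a library left out.

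Equal replicate numbers are not said to mark a shared culture. With the replicate block the counts of 72 gained and 1 lost, the gained share of 21.7% and the differences of 3.26 points, 44 bp, 3.76 points and 0.113 stay the same by construction, since a gain in both pairs is a gain. The smallest paired p is 0.5. Within pairs, swc4Δ replicate 1 had 137 IV regions without a WT replicate 1 peak and 18 were the reverse, and for replicate 2 these were 228 and 11. A region that just misses a list's threshold counts as no peak, and 2 libraries per genotype limit every comparison.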
